A study of Saccharomyces cerevisiae with 6 samples.

Results

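The heat response of budding yeast cells without the histone deacetylase Rpd3 was read from the 3 arrays labelled as the rpd3 deletion, chosen by their labels alone, out of 6 arrays in the series. Each of these arrays set RNA of deletion cells moved to 39 °C for 20 minutes against RNA of deletion cells kept at 25 °C. The deletion was made in the laboratory strain BY4741, and the other 3 arrays, of BY4741 with an intact RPD3 gene and called wild type here, had the same layout. Cultures of 200 ml were grown to mid-log phase in rich medium (YPD), and the arrays of a strain are biological replicates, each from a separate culture per the labels. Both strains carry the marker deletions of BY4741 (HIS3, LEU2, MET17 and URA3). How many deletion clones were used is not given in the sources used here.

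Rpd3 removes acetyl groups from histones as the catalytic subunit of a large and a small complex built around the scaffold protein Sin3. The large complex is brought to genes by DNA-binding proteins such as Ume6, which keeps meiosis genes silent in growing cells, and the small complex acts within transcribed genes. When yeast is heated, the factors Hsf1, Msn2 and Msn4 switch on chaperones and general stress genes, while genes of ribosomes and of their assembly are switched down.

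Values are log2 ratios of heated over control cells, averaged over the spots of a gene on each array, for 4073 named genes. The direction and the base are the likely reading of the deposited values. The genes deleted from BY4741, which have no transcript in either channel or only a remnant, give the ratio of spots without RNA. Their medians were -0.087, -0.083 and -0.12 on mutant arrays 1, 2 and 3 and 0.25, 0.12 and 0.064 on the wild-type arrays, with 0 of the 4 genes called in the mutant and 0 in wild type. RPD3 itself was at -0.11, -0.029 and -0.084 on the mutant arrays (adjusted p = 0.355), and since neither channel should hold its RNA there, its ratio checks the label only weakly. The spread between its spots had a standard deviation of 0.129, 0.181 and 0.0563 on the mutant arrays and 0.034, 0.0406 and 0.0263 on the wild-type arrays. The medians of the deleted genes were 0.126, 0.136 and 0.181 on the mutant arrays, so RPD3 spread at least as widely as they did on arrays 1 and 2 and less widely on array 3. On every array control RNA carried Cy5 and heated RNA Cy3, so dye and heat cannot be told apart within a strain.

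The mutant arrays ranked genes alike but differed in the size of the response. Genes do not count as independent replicates, and over them Pearson's r was 0.956 between arrays 1 and 2, 0.954 between arrays 1 and 3 and 0.851 between arrays 2 and 3. The slope of an array on the mean of the other mutant arrays was 1.03, 1.09 and 0.78 for arrays 1, 2 and 3. Of the 279 genes that rose at least 2-fold, 78.5% had their highest ratio on array 2 and 78.5% their smallest on array 3. For the 373 genes that fell at least 2-fold the same arrays led with 50.4% and 63.8%. Array 2 thus gave the largest and array 3 the smallest response, and the cause was not tested.

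**Figure D1:**
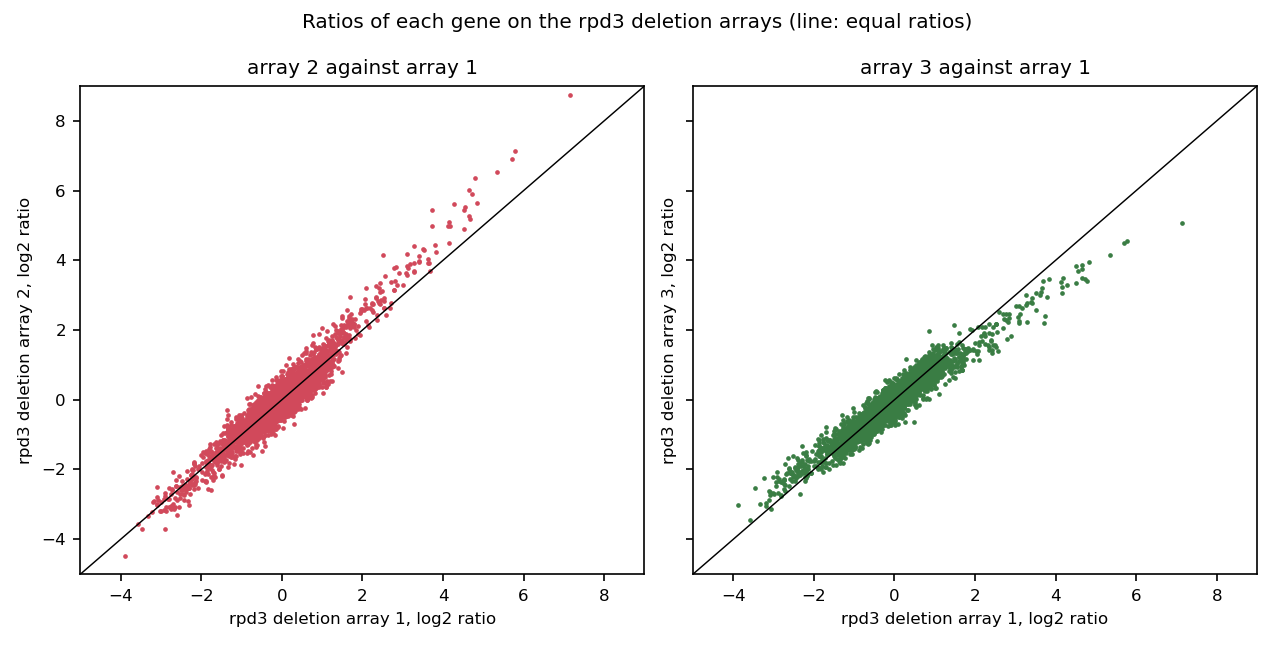
Log2 ratio of each of 4073 genes on mutant array 2 (left) and mutant array 3 (right) against mutant array 1, with the line of equal ratios. On array 2 the strongly rising genes lie above the line, and on array 3 they lie below it, with slopes on the mean of the other arrays of 1.09 and 0.78.

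The main comparison asked which genes changed with heat in cells without Rpd3. In all 1372 genes rose and 1300 fell, which is 33.7% and 31.9% of the 4073 genes tested (limma, Benjamini-Hochberg adjusted p under 0.05). Of these, 279 rose and 373 fell by at least 2-fold, 6.85% and 9.16% of all genes, and each of these 652 genes had the same sign on all 3 mutant arrays, as 76.0% of all genes did. With 65.6% of the genes called in 1 direction or the other, a gene group is read below by how its counts depart from these shares. The median ratio of all genes was -0.0029, -0.0084 and 0.022 on mutant arrays 1, 2 and 3. When the tested null was a change of up to 1.2-fold rather than 0, 770 genes rose and 815 fell. With the mutant arrays fitted alone, so that wild type did not enter the variance, 1166 genes rose and 1136 fell.

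The highest ratio was that of HSP12, a small heat shock protein of membranes, at 7.15, 8.75 and 5.06 on mutant arrays 1, 2 and 3. Its mean of 6.99 ± 1.85 (SD, n = 3) is a 127-fold rise, and its SD was among the 3 largest of all genes that changed 2-fold. The adjusted p of 4.48e-05 rests on a variance shared with the wild-type arrays, where the SD was 0.29. It does not measure the spread of the mutant arrays alone, and the same holds for the main tests of the other genes. SSA4 and SSA3, the stress-induced Hsp70 chaperones, followed at 5.78, 7.13 and 4.55 and at 5.70, 6.90 and 4.50. All 3 arrays were above 4 for both, and array 2 was highest. ALD3, an aldehyde dehydrogenase, was at 5.35, 6.53 and 4.17, and SPI1, a cell wall protein of starving and stressed cells, at 4.78, 6.37 and 3.40. HSP104, which pulls proteins out of aggregates, was at 4.83, 5.64 and 3.94 (28-fold, adjusted p = 2.11e-05). The other 9 of the 15 highest genes had means from 4.22 to 4.72. They were the hexose transporter genes HXT5, HXT6 and HXT7, HSP78 of the mitochondrial disaggregase, the small heat shock protein genes HSP26 and HSP42, the Hsp90 gene HSP82, SOL4 of the pentose phosphate pathway and the glycogen phosphorylase gene GPH1. HXT6 and HXT7 are near-identical copies whose spots could share signal.

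The lowest ratio was that of DBP2, an RNA helicase gene, at -3.89, -4.49 and -3.01 (mean -3.80 ± 0.75, adjusted p = 2.12e-05). PRY1, a secreted protein gene of sterol export, followed at -3.58, -3.56 and -3.44 and varied little (SD 0.075). The acid phosphatase genes PHO12 (-3.47, -3.71 and -2.53), PHO5 (-3.00, -3.20 and -2.67) and PHO11 (-2.94, -3.16 and -2.47) stood among the 15 lowest, and PHO11 and PHO12 are near-identical. ATF2, an alcohol acetyltransferase that also modifies sterols, was at -3.33, -3.32 and -2.98, and SRL1, a cell wall mannoprotein gene, at -3.18, -2.91 and -2.96. YHB1, the nitric oxide-detoxifying flavohemoglobin, was at -2.91, -3.71 and -2.07, and PLB2, a phospholipase B gene, at -2.99, -2.93 and -2.69. The remaining 6 were the ribosomal protein genes RPL23A (-3.19, -2.93 and -3.05), RPL21A, RPL23B, RPS11A, RPL20A and RPS21A (-3.09, -2.80 and -2.65). The SD over the 3 arrays was between 0.075 and 0.82 for these 15 genes and between 0.54 and 1.85 for the 15 highest.

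**Figure D2:**
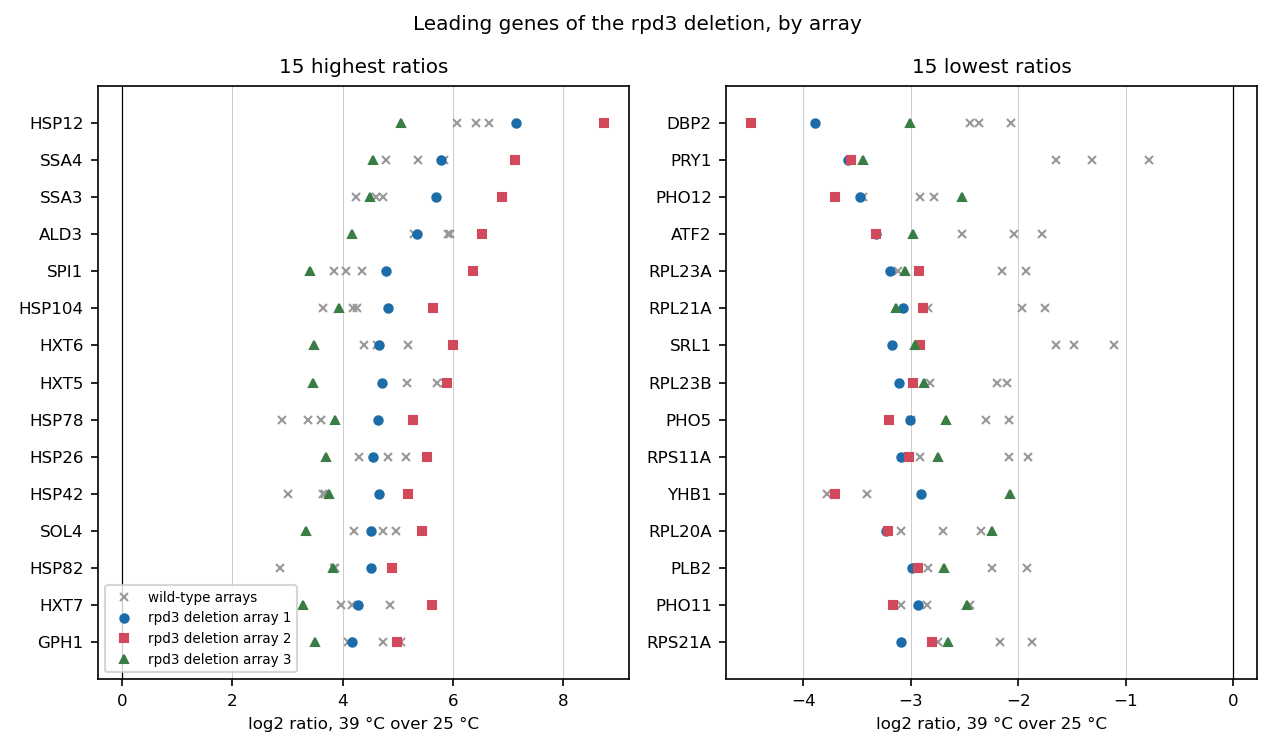
Log2 ratio of heated over control cells for the 15 highest and the 15 lowest genes of the rpd3 deletion, with the 3 mutant arrays as coloured symbols and the 3 wild-type arrays as grey crosses. HSP12 spans 5.06 to 8.75 on the mutant arrays, whereas PRY1 stays between -3.58 and -3.44 and below all wild-type arrays.

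Other genes changed by nearly the same amount on every mutant array. The rises with the smallest SD among genes changed 2-fold were those of RBK1, the ribokinase gene (1.01, 1.05 and 1.02), FBP26, a phosphatase gene of sugar metabolism (1.0, 1.02 and 1.04), and APE1, the vacuolar aminopeptidase gene (1.35, 1.32 and 1.38). The falls with the smallest SD were those of TAD2, a subunit of the deaminase that edits transfer RNA (-1.55, -1.55 and -1.54), OST6 of the oligosaccharyl transferase (-1.15, -1.16 and -1.14), and TIM13 of mitochondrial import (-1.02, -1.0 and -0.98). At the other end stood HSP12, SPI1 and DDR2, a stress-induced gene, which was at 3.72, 5.45 and 2.20 with array 2 highest and array 3 lowest.

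Protein folding genes led the rises. Of 6 small heat shock protein and disaggregase genes all 6 rose, with medians of 4.61, 5.36 and 3.73 on mutant arrays 1, 2 and 3, the highest of all lists. Of 10 genes of cytosolic Hsp70, Hsp110 and their exchange factors 6 rose and 4 fell (median 1.67). The falls include SSB2, an Hsp70 that binds chains leaving the ribosome (-2.35, -2.26 and -2.17). Among 8 J-protein genes, whose products send clients to Hsp70, 5 rose and 2 fell. SIS1 (3.65, 3.93 and 3.19) and YDJ1 (2.58, 2.44 and 2.52) rose most, both above all wild-type arrays and called higher than there (differences 1.76 ± 0.26 and 1.70 ± 0.19, SE, adjusted p = 0.00245 and 0.000881). ZUO1, the J-protein at the ribosome, fell (-1.12, -1.32 and -1.02), and 1 of the 8 fell without any 1 of the 3 mutant arrays. In both families, then, called members lay on either side of 0.

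Hsp90 and its co-chaperones rose in 10 of 12 cases, with medians of 1.51, 1.2 and 1.49. HSP82 (4.52, 4.90 and 3.83) and the cyclophilin gene CPR6 (3.84, 4.24 and 3.45) had the highest ratios, and PPT1, the Hsp90-bound phosphatase, was the lower of 2 that fell (-0.98, -1.16 and -0.76), 1 of them without mutant array 1 or array 3. The median in wild type was 0.51, and 8 of the 12 genes were called higher in the mutant and 0 lower, where 24.8% and 21.0% of all genes were. These strain shares rest on the centring of the arrays: once the deleted genes set the centre of each array, the higher calls went from 1012 to 1564 and the lower calls from 854 to 398. Of 12 mitochondrial chaperone genes 9 rose and 1 fell (median 0.81). HSP78 was at 4.64, 5.28 and 3.87 and the J-protein gene MDJ1 at 2.39, 2.83 and 1.70, and the exchange factor gene MGE1 fell (-1.37, -1.57 and -0.91). In the endoplasmic reticulum 6 of 21 folding genes rose and 6 fell, near the background. The oxidase gene ERO1 (2.85, 3.30 and 2.46) and the Hsp70 gene KAR2 (2.78, 3.16 and 2.45) rose most, and ERV2, another thiol oxidase gene, fell (-1.30, -1.53 and -1.05). The cytosolic chaperonin and prefoldin, which fold actin and tubulin, had 0 rises and 4 falls among 14 genes, with GIM3 (-0.74, -0.66 and -0.62) and CCT8 (-0.54, -0.95 and -0.066) lowest. CCT8 was not called without mutant array 1 or array 2 (adjusted p = 0.0776 and 0.0599), and 2 of the 14 fell without mutant array 1.

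General stress genes are targets of Msn2 and Msn4, and 39 of 43 rose and 0 fell, 34 of them by at least 2-fold. Their medians were 2.33, 2.77 and 1.58 on mutant arrays 1, 2 and 3, so the whole group followed the order of the arrays. In wild type they were 2.74, 2.41 and 2.58. Of the 43 genes 15 were called lower in the mutant and 2 higher, where 21.0% and 24.8% of all genes were. SIP18, picked out after its values were seen, was the lowest at -0.036, -0.059 and -0.16 and was not called (adjusted p = 0.31). In trehalose and glycogen metabolism 20 of 25 genes rose and 1 fell, with medians of 1.33, 1.65 and 1.0. The wild-type medians were 2.08, 1.68 and 2.06, and 10 of the 25 were called lower in the mutant and 0 higher. The strain calls of both lists rest on the centring of the arrays. GPH1 was at 4.17, 4.99 and 3.50 and TSL1, a subunit of trehalose synthase, at 3.17, 3.89 and 2.63, while PGM1, the minor phosphoglucomutase gene, fell (-0.75, -0.67 and -0.69). The lists overlap in their members.

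Oxidative stress genes split. Of 34 genes 14 rose and 11 fell (median 0.081), against 33.7% and 31.9% of all genes. The catalase gene CTT1 was at 2.79, 3.77 and 1.75 and the peroxiredoxin gene TSA2 at 1.70, 2.06 and 1.09, and both were called lower than in wild type (differences -1.70 ± 0.45 and -1.49 ± 0.24, adjusted p = 0.0194 and 0.00297). YHB1 was the lowest of the list.

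Among 29 stress transcription factors and kinases 18 rose and 4 fell, mostly by less than 2-fold, and 2 fell without mutant array 1 or array 2. MSN2 rose (0.74, 0.40 and 0.68, adjusted p = 0.00098) and so did HSF1 (0.40, 0.41 and 0.26, 0.00323). MSN4 was at 0.22, 0.28 and 0.10 and was not called (adjusted p = 0.0639). HSF1 was not called with the length trend removed (0.20, adjusted p = 0.0619), and MSN4 was called under deleted-gene centring (0.29, 0.0334). The MSN4 ratio was 0.90 ± 0.14 (SD) in wild type, and the difference of -0.70 ± 0.12 (SE) was called (adjusted p = 0.0034). CMK2, a calmodulin-dependent kinase (1.42, 1.19 and 1.49), and SSK22, a kinase of the osmotic stress pathway (1.09, 0.90 and 1.09), rose most, and SCH9, a growth kinase downstream of TOR, fell (-0.46, -0.32 and -0.71). In the Ras and protein kinase A list 7 of 16 rose and 3 fell. IRA2, which switches Ras off, was at 2.52, 2.62 and 2.18, PDE1, a phosphodiesterase gene, at 1.09, 1.07 and 0.83, and RAS1 fell (-0.49, -0.88 and -0.29).

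Ribosomal protein genes fell almost without exception. Of 80 genes of the large subunit 78 fell and 1 rose, and of 56 of the small subunit 52 fell and 0 rose, against 31.9% falls among all genes. The medians were -2.15, -2.15 and -1.63 for the large and -2.13, -2.18 and -1.71 for the small subunit on mutant arrays 1, 2 and 3. RPL23A and RPL21A (-3.07, -2.89 and -3.14) were lowest in the large and RPS11A (-3.09, -3.01 and -2.74) and RPS21A in the small subunit, and RPL15B was the 1 gene that rose (0.50, 0.68 and 0.18), a call lost without mutant array 1 (adjusted p = 0.06). Most of these genes come in pairs of near-identical copies whose spots could share signal. The wild-type medians were -2.04, -1.82 and -2.38 and -2.19, -1.92 and -2.49, which overlap those of the mutant.

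Genes that assemble ribosomes had medians near 0 in the mutant. Of 57 small-subunit assembly genes 13 rose and 14 fell, and of 58 for the large subunit 9 rose and 18 fell. Over all genes 33.7% rose and 31.9% fell. Rises were thus fewer in both lists, and falls fewer for the small subunit but near the background for the large. Medians were -0.033, -0.15 and 0.20 for the small and -0.13, -0.42 and 0.24 for the large subunit on mutant arrays 1, 2 and 3. Array 3 was above 0 and array 2 below it for both. In wild type the medians were -1.23, -1.30 and -1.24 and -1.45, -1.65 and -1.33. In the mutant 54 of 57 and 53 of 58 genes were called higher and 0 and 1 lower, where 24.8% and 21.0% of all genes were. RRP5 (-0.72, -1.59 and -0.11) and UTP20 (-0.74, -1.38 and -0.22), both of the small-subunit processome, had the lowest ratios of their list, and KRI1 the highest (0.65, 0.57 and 0.94). RRP5 was not called without mutant array 1 (adjusted p = 0.0587). For the large subunit NIP7 fell (-1.18, -1.33 and -0.60), NOP8 rose (0.77, 0.35 and 1.09), and DBP2, described above, stood far below the rest. DBP2 was also the 1 member called lower than in wild type (difference -1.5 ± 0.34, adjusted p = 0.0108). When mutant array 1 was left out, 6 of the small-subunit and 11 of the large-subunit genes fell and 4 of the large-subunit genes rose. Without mutant array 2, 9 and 11 fell and 14 large-subunit genes rose, and without mutant array 3, 5 large-subunit genes rose. The small-subunit median of -0.0083 went to 0.087 with arrays centred on the deleted genes, 0.016 with arrays centred on all spots, 0.019 without mutant array 1 and 0.086 without mutant array 2, and the large-subunit median of -0.10 to 0.055 without mutant array 2.

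Among other lists of ribosomal RNA synthesis and processing, falls clearly exceeded the share of all genes only for snoRNP genes. Over all genes 31.9% fell and 33.7% rose. The core of the snoRNPs, which guide the modification of ribosomal RNA, fell in 9 of 14 cases and rose in 4 (median -0.72), and 2 rose without mutant array 1 or array 3. Fibrillarin (NOP1, -1.74, -1.88 and -1.68) and SNU13 (-1.70, -1.53 and -1.82) were lowest, and SHQ1, an assembly factor, rose (0.90, 0.70 and 0.87). Of 36 genes of RNA polymerases I and III and their factors 13 fell and 7 rose, a fall share near the background. The large polymerase I subunits RPA190 (-1.56, -2.00 and -1.23) and RPA135 (-1.08, -1.33 and -0.75) fell most, and BRF1, an initiation factor of polymerase III, rose (0.75, 0.59 and 1.19). In the RNA exosome list 7 of 19 fell and 6 rose, near the background. PAP2, a poly(A) polymerase (-0.91, -1.07 and -0.70), and the nuclease gene RRP6 (-0.44, -0.67 and -0.23) were lowest and the helicase gene SKI2 highest (0.83, 0.31 and 1.25).

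Most translation factor and aminoacyl-tRNA synthetase genes fell. Of 49 translation factor genes 32 fell and 6 rose, with medians of -0.52, -0.75 and -0.38. The elongation factor 3 gene YEF3 (-2.29, -2.34 and -2.05) and CDC33, the cap-binding protein (-1.77, -1.94 and -1.41), fell most, and HEF3, the other copy of elongation factor 3, rose (0.89, 0.96 and 0.81). Rises numbered 3 without mutant array 1 or array 3. Of 17 aminoacyl-tRNA synthetase genes 11 fell and 0 rose (1 without mutant array 2, medians -0.69, -0.86 and -0.49), led by VAS1 (-1.61, -1.83 and -1.41) and ALA1 (-1.37, -1.57 and -0.97). Of 63 mitochondrial ribosomal protein genes 31 fell and 12 rose. MRPL20 (-0.96, -1.01 and -0.94) and MRPL37 (-1.18, -0.79 and -0.92) were lowest and RSM28 highest (0.77, 0.44 and 1.10). Rises numbered 7 without mutant array 1 or array 3. After a trend with coding length was removed, 12 of these 63 fell and 20 rose, and the median went from -0.21 to 0.022.

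**Figure D3:**
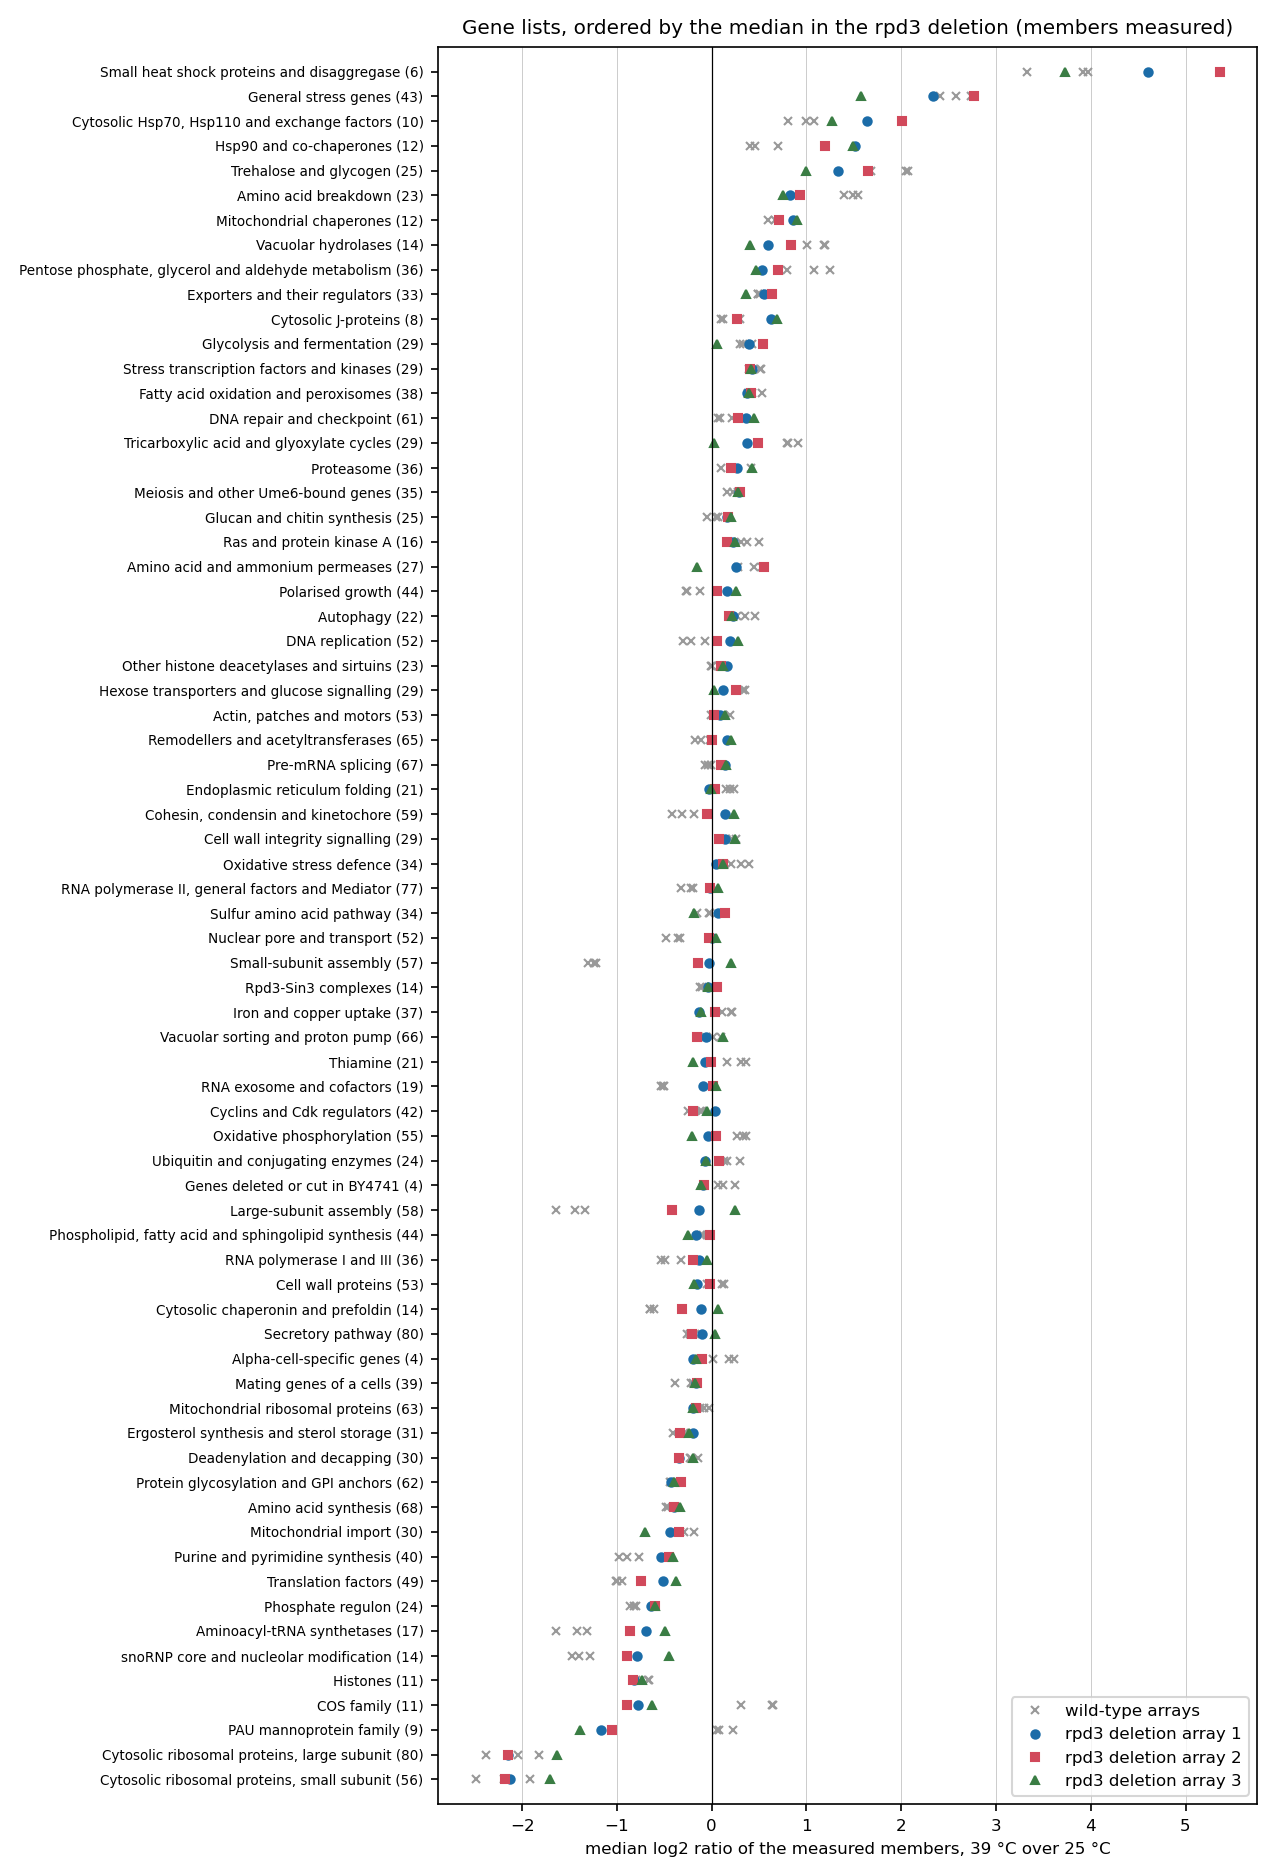
Median log2 ratio of the measured members of each gene list on the 3 mutant arrays (coloured symbols) and the 3 wild-type arrays (grey crosses), ordered by the median of the mutant means, with the number of members in brackets. The small heat shock proteins lead with 3.73 to 5.36 on the mutant arrays and the ribosomal protein lists close with -2.18 to -1.63, while both assembly lists lie between -0.42 and 0.24.

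Genes of the Rpd3 complexes themselves changed by less than 2-fold. Of 14 members, RPD3 included, 5 rose and 4 fell, near the shares of all genes. RCO1, a subunit found only in the small complex, rose most (0.96, 0.87 and 1.02), followed by ASH1, a DNA-binding repressor of the large complex (0.69, 0.69 and 0.56). CTI6 (0.34, 0.42 and 0.49), SDS3 (0.39, 0.30 and 0.28) and SIN3 (0.38, 0.054 and 0.51) rose as well, and SIN3 with an adjusted p of 0.0358. UME1 (-0.39, -0.60 and -0.30), SAP30 (-0.56, -0.38 and -0.14), EAF3 (-0.32, -0.28 and -0.39) and UME6 (-0.21, -0.13 and -0.42) fell. SIN3, SAP30 and UME6 were each not called when single arrays were left out, without mutant array 1 at adjusted p = 0.164, 0.205 and 0.102. The other arrays that ended a call were mutant array 3 and wild-type array 1 for SIN3 (0.155 and 0.0623), mutant array 2 and wild-type array 3 for SAP30 (0.0742 and 0.0513), and mutant array 3 and wild-type array 2 for UME6 (0.161 and 0.0507). With the median of spots in place of the mean, UME6 was at a ratio of 0.039 (adjusted p = 0.673) and SAP30 was not called (0.0837). With arrays centred on the deleted genes neither was called (0.135 and 0.0892), and with the length trend removed SAP30 (0.38) and SIN3 (0.131) were not. Falls in the list numbered 2 without mutant array 1. PHO23, DEP1, RXT2 and RXT3 were not called, with means from -0.18 to 0.22. DEP1 and RXT3 lay close to the threshold (adjusted p = 0.0543 and 0.0533). DEP1 passed it without mutant array 3 (0.0154), with the replicate block (0.0427), with either centring (0.0151 and 0.036) and with the length trend removed (0.0477), and RXT3 with scaled arrays (0.0495) or quantile normalization (0.0217). RCO1 and ASH1 were called higher than in wild type (differences 1.04 ± 0.14 and 0.48 ± 0.10, adjusted p = 0.00163 and 0.00682).

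The other chromatin lists differed. Among 23 genes of other deacetylases and sirtuins 9 rose and 3 fell, with HDA3 (0.79, 0.72 and 0.87) and SET3 (0.87, 0.50 and 1.0) highest and the sirtuin gene HST2 lowest (-0.78, -0.71 and -1.08), and 1 fell without mutant array 1. Of 65 remodeller and acetyltransferase genes 24 rose and 13 fell, a rise share near the background, led by ITC1 (1.67, 1.86 and 1.32) and RSC9 (1.05, 1.01 and 0.86), with the acetyltransferase gene SAS2 lowest (-0.70, -0.60 and -0.59). With mutant array 1 left out, 14 of them rose. RNA polymerase II, its general factors and Mediator had 21 rises and 18 falls among 77. TAF2 (1.2, 0.91 and 1.45) and PAF1 (1.03, 1.02 and 1.11) were highest, and the shared polymerase subunit gene RPB8 was lowest (-1.33, -1.05 and -1.60). Histones fell in 7 of 11 cases and rose in 1. HTA2 (-1.63, -1.49 and -1.39) and HTB2 (-1.29, -1.27 and -1.16) were lowest and HHT2 rose (0.50, 0.10 and 0.72), a call lost without mutant array 1 or array 3 (adjusted p = 0.1095 and 0.1055). Histone genes also come in near-identical copies.

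Meiosis and other Ume6-bound genes rose in 19 of 35 cases and fell in 4 (medians 0.28, 0.30 and 0.27). The largest rises were metabolic: CAR1, the arginase gene, was at 2.18, 2.63 and 1.70, and INO1, of inositol synthesis, at 1.95, 2.48 and 1.43. MUM2, of meiotic replication, fell (-0.63, -0.51 and -0.28). The ratio is taken within a strain, so the level of these genes before heating was not measured here.

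Carbon metabolism genes rose more often than they fell. Of 29 glycolysis and fermentation genes 15 rose and 7 fell. ADH2, the alcohol dehydrogenase that consumes ethanol, was at 3.73, 5.0 and 2.41, the hexokinase gene HXK1 at 3.27, 3.92 and 2.99, and ADH5 fell (-1.28, -0.83 and -1.30). Of 29 hexose transporter and glucose signalling genes 12 rose and 6 fell. The transporter genes HXT6 (4.66, 6.01 and 3.48) and HXT5 (4.72, 5.90 and 3.46) were highest and the low-affinity HXT3 lowest (-1.56, -1.66 and -1.22). The pentose phosphate, glycerol and aldehyde list had 20 rises and 7 falls among 36. ALD3 and SOL4 (4.51, 5.44 and 3.34) led it, while RKI1, an isomerase of the pentose phosphate pathway, fell (-1.27, -1.5 and -0.77).

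Genes of mitochondrial energy supply went both ways. In the tricarboxylic acid and glyoxylate cycles 14 of 29 rose and 7 fell, led by the citrate synthase genes CIT1 (2.68, 2.64 and 2.46) and CIT2 (2.45, 2.85 and 2.08), and IDP1, an isocitrate dehydrogenase gene, fell (-1.42, -1.34 and -1.29). Oxidative phosphorylation had 16 rises and 19 falls among 55, near the background. The cytochrome oxidase gene COX4 (-1.11, -0.51 and -1.44) and HAP3, a subunit of the activator of respiration genes (-1.06, -0.87 and -1.02), were lowest. STF2, a regulator of ATP synthase, was highest (1.88, 2.11 and 1.43). In that list 27 of 55 genes were called lower than in wild type and 3 higher, where 21.0% and 24.8% of all genes were. With deleted-gene centring the lower calls over all genes went from 854 to 398. With the length trend removed 30 genes of the list rose and 12 fell in the mutant. The counts were 10 rises and 12 falls without mutant array 1. Fatty acid oxidation and peroxisome genes rose in 23 of 38 cases and fell in 5. The carnitine carrier gene CRC1 was at 3.52, 4.29 and 2.59, the fatty acid activation gene FAA1 at 2.53, 2.64 and 2.16, and FAA4 fell (-1.09, -1.46 and -0.74). Falls numbered 3 without mutant array 1. Mitochondrial import fell in 20 of 30 cases and rose in 2. The receptor gene TOM20 (-1.72, -1.54 and -1.93) and the small subunit gene TOM5 (-1.63, -1.22 and -1.98) were lowest, both called lower than in wild type (differences -1.02 ± 0.21 and -1.16 ± 0.24, adjusted p = 0.00738 and 0.0082), and MAS1, of the peptidase that trims imported proteins, rose (0.63, 0.64 and 0.51). Falls among the import genes numbered 13 without mutant array 1, and 1 of them rose without mutant array 1 or array 3.

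Most called genes of amino acid synthesis fell, and most of amino acid breakdown rose. Of 68 synthesis genes 40 fell and 12 rose (medians -0.40, -0.39 and -0.33). ARO4, the entry enzyme of aromatic amino acids (-1.97, -2.31 and -1.29), and SHM1, a mitochondrial enzyme of glycine and serine exchange (-1.82, -1.73 and -1.99), were lowest. ARO9, an aromatic aminotransferase of the breakdown route, was highest (3.41, 3.95 and 2.78). Among 23 breakdown genes, a list added after values were seen, 16 rose and 1 fell (medians 0.82, 0.93 and 0.75). CHA1, the serine and threonine deaminase gene, was at 3.69, 3.69 and 3.41, ARO10, which decarboxylates the products of ARO9, at 3.63, 4.03 and 3.10, and ARO8 fell (-1.13, -1.11 and -1.07), and 2 of the 23 fell without mutant array 2 or wild-type array 3. CHA1 was higher than in wild type by 1.41 ± 0.21 (adjusted p = 0.00244) and ARO10 differed by -1.48 ± 0.26 and was lower (0.00422).

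Lists of transport genes were added in the same way. Of 33 genes of exporters and their regulators 19 rose and 6 fell, with the drug pump gene SNQ2 (2.15, 2.14 and 1.84) and SNG1 (2.05, 2.75 and 1.30) highest and the sterol importer gene AUS1, of the same protein family, lowest (-2.48, -2.33 and -2.32). Of 27 amino acid and ammonium permease genes 10 rose, a share near the background, and 3 fell. The ammonium permease gene MEP1 (1.96, 2.55 and 1.15) and DIP5 (1.78, 2.17 and 1.34) were highest and OPT1, a peptide transporter gene, lowest (-1.34, -0.82 and -1.66). Without mutant array 2, 7 of the 27 fell.

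Nucleotide, sterol and phosphate genes fell more often than they rose. Of 40 purine and pyrimidine genes 22 fell and 7 rose, with IMD2, of guanine nucleotide synthesis (-2.42, -2.87 and -2.19), and GUK1 (-2.01, -1.59 and -1.75) lowest and ADE17 highest (1.21, 1.25 and 1.0). Ergosterol synthesis and storage had 16 falls and 7 rises among 31. ERG28, a scaffold of the sterol enzymes (-1.79, -1.27 and -1.79), and ERG13 (-1.49, -1.5 and -1.34) fell most, and the sterol esterifying enzyme gene ARE2 rose (1.24, 1.82 and 0.75). The phospholipid, fatty acid and sphingolipid list was near the background, with 16 falls and 14 rises among 44. OLE1, the fatty acid desaturase gene, was at -2.73, -3.04 and -2.57, AUR1, of sphingolipid synthesis, at -1.61, -1.31 and -1.80, and INO1 rose. The phosphate regulon fell in 15 of 24 cases and rose in 2. PHM7, which rose (2.56, 3.56 and 1.40), is also in the general stress list.

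Uptake and vitamin lists were mixed. Iron and copper uptake had 16 falls and 13 rises among 37, with the siderophore carrier gene ARN2 (-2.69, -3.13 and -2.13) and the cell wall mannoprotein gene FIT1 (-2.51, -2.58 and -2.22) lowest and ISU1, a scaffold of iron-sulfur clusters, highest (1.51, 1.94 and 0.96). The sulfur amino acid list had 9 of each among 34. SAM1, an S-adenosylmethionine synthetase gene, fell (-1.45, -1.39 and -1.34), and MET12 (0.78, 0.41 and 1.13) and the methionine permease gene MUP1 (0.46, 0.75 and 0.71) rose. Rises numbered 5 without mutant array 1. In the thiamine list 6 of 21 fell and 3 rose, with SNZ2 (-1.13, -0.50 and -1.38) and SNZ3 (-1.06, -0.45 and -1.44), near-identical genes of vitamin B6 synthesis, lowest and SNZ1 highest (1.26, 1.38 and 1.25). Falls numbered 3 without mutant array 1 or array 3.

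Cell wall protein genes often changed strongly, in both directions. Among 53 of them 18 rose and 22 fell, where 33.7% and 31.9% of all genes did, so the rise share was near the background. At least 2-fold changes numbered 11 rises and 13 falls, and these exceeded the 6.85% and 9.16% of all genes. SPI1 led the rises, and PRY1 and DAN1, an anaerobic mannoprotein gene (-2.81, -2.83 and -2.72), the falls. Signalling through the cell wall integrity pathway had 13 rises and 8 falls among 29. Its MAP kinase gene SLT2 was at 2.36, 2.30 and 2.17 and BAG7, which turns Rho1 off, at 1.61, 2.59 and 0.83, and the sensor gene WSC4 fell (-1.07, -1.04 and -0.92). SLT2 was higher than in wild type by 0.98 ± 0.15 (adjusted p = 0.00264). Glucan and chitin synthesis had 11 rises and 5 falls among 25, with the chitin synthase gene CHS1 (1.23, 1.04 and 1.26) and KRE9 (0.87, 0.94 and 0.99) highest and the glucan synthase gene FKS1 lowest (-1.35, -1.37 and -1.01). Falls numbered 3 without mutant array 1.

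Polarised growth genes rose in 16 of 44 cases, a share near the 33.7% of all genes, and fell in 7, where 31.9% of all genes fell. Without mutant array 1, 6 of the 44 rose, and 10 without array 3. SPA2, a scaffold at growth sites (0.92, 0.37 and 1.56), and MSB3 (0.78, 0.84 and 0.56) were highest and MSB2, a sensor at the cell surface, lowest (-1.56, -1.47 and -1.75). Actin, patch and motor genes had 19 rises and 13 falls among 53, near the background. The actin bundling gene SAC6 was at 1.59, 1.35 and 1.66 and the myosin gene MYO3 at 1.02, 0.59 and 1.09, while the actin-severing cofilin gene COF1 fell (-0.75, -0.28 and -1.13). ACT1 itself, the actin gene, rose (0.39, 0.89 and 0.36), and 7 of the 53 fell without mutant array 1. Genes of mating in a cells, the mating type of BY4741, fell in 17 of 39 cases and rose in 7. The pheromone gene MFA2 (-1.33, -0.84 and -1.68) and STE14, which methylates the pheromone (-1.35, -0.72 and -1.53), were lowest and PRM5 highest (3.62, 3.93 and 3.01). Of the 4 genes specific to alpha cells, which a cells should not express, SAG1 (-0.47, -0.32 and -0.53) and MF(ALPHA)2 (-0.33, -0.12 and -0.23) were called, and MF(ALPHA)2 turned to 0.18 (adjusted p = 0.0704) with the length trend removed. It was not called without mutant array 1 or 3 or wild-type array 2 (0.258, 0.1075 and 0.0716).

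Among cell cycle genes, G1 cyclins were lowest and a Cdk inhibitor was highest. Of 42 cyclin and Cdk regulator genes 19 fell and 11 rose. The G1 cyclins CLN1 (-1.90, -2.33 and -1.48) and CLN2 (-1.33, -1.92 and -1.23) were lowest. SIC1, the inhibitor that holds cells before DNA replication, was highest (1.41, 1.38 and 1.30, adjusted p = 3.41e-05). Rises numbered 4 without mutant array 1.

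Genes of genome maintenance rose more often than they fell. Of 61 DNA repair and checkpoint genes 40 rose and 4 fell, against 33.7% and 31.9% of all genes, though 5 rises reached 2-fold (medians 0.37, 0.28 and 0.45). The photolyase gene PHR1 (1.38, 1.41 and 1.05) and RAD16 (1.29, 1.43 and 0.99) were highest and HUG1, a marker of DNA damage signalling, lowest (-1.34, -0.77 and -1.56). DNA replication had 22 rises and 7 falls among 52. TAH11, the licensing factor Cdt1 (1.78, 2.17 and 1.18), and the topoisomerase gene TOP1 (0.93, 0.81 and 1.19) were highest and RFA3, the small subunit of replication protein A, lowest (-1.21, -1.11 and -1.31). Cohesin, condensin and kinetochore genes had 22 rises, a share near the background, and 11 falls among 59. SMC2 (1.09, 1.0 and 1.5) and SMC1 (1.07, 0.92 and 1.40) led them, with the spindle pole gene SPC98 lowest (-0.89, -1.19 and -0.68). Without mutant array 1, 13 of the 59 rose and 5 fell. The median coding length of the repair, replication and cohesin lists was 1980, 1909.5 and 1731 bp. In the bin of all genes from 1572 to 2268 bp, 41.2% rose and 21.9% fell.

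The RNA processing lists did not share a direction. Of 67 splicing genes 25 rose, a share near the 33.7% of all genes, and 7 fell, where 31.9% of all genes fell. PRP46 (1.47, 1.29 and 1.35) and PRP3 (1.23, 1.39 and 1.40) were highest and SMD1 lowest (-1.12, -0.71 and -1.11). Without mutant array 1, 12 rose and 3 fell. Deadenylation and decapping fell in 16 of 30 cases and rose in 5. CDC36, of the Ccr4-Not complex (-1.42, -0.95 and -1.49), and LSM6 (-1.24, -1.16 and -1.26) were lowest and EDC2, an enhancer of decapping, highest (1.41, 1.74 and 0.87). Nuclear pore and transport genes had 19 rises and 15 falls among 52, near the background. NUP53 (0.99, 0.72 and 1.13) and MTR10 (0.92, 0.88 and 0.97) were highest, and KAP123, which imports ribosomal proteins, lowest (-1.90, -2.37 and -1.99). Rises in this list numbered 12 without mutant array 1 or array 3.

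Genes of protein turnover rose more often than they fell, except that rises and falls were close in number for ubiquitin and its enzymes. Over all genes 33.7% rose and 31.9% fell. Of 36 proteasome genes 19 rose and 3 fell, with medians of 0.27, 0.21 and 0.42. RPN1 (1.21, 0.54 and 1.58) and RPT2 (0.97, 0.62 and 1.46) were highest and PUP1 lowest (-0.34, -0.22 and -0.62), and 1 fell without mutant array 1. Ubiquitin and its enzymes had 10 rises and 9 falls among 24. The polyubiquitin gene UBI4 (1.51, 1.95 and 1.44) and the ligase gene UFD4 (1.17, 0.94 and 1.19) rose most, and RPL40B, which encodes ubiquitin fused to a ribosomal protein, fell (-2.71, -2.99 and -1.84). Autophagy genes rose in 10 of 22 cases and fell in 3, with ATG8 (0.96, 1.31 and 0.70) and ATG21 (0.82, 0.56 and 0.91) highest and ATG22 lowest (-0.75, -0.56 and -0.34). Vacuolar hydrolases and their regulators rose in 11 of 14 cases and fell in 1. TFS1, an inhibitor of carboxypeptidase Y, was at 3.10, 4.19 and 2.22, APE1 followed, and the phosphatase gene PHO8 fell (-0.54, -0.58 and -0.45). In that list 9 of 14 were called lower than in wild type and 0 higher, where 21.0% and 24.8% of all genes were. These calls too rest on the centring of the arrays.

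Protein glycosylation and GPI anchor genes fell in 39 of 62 cases and rose in 8 (medians -0.43, -0.33 and -0.40), with the mannosyltransferase genes MNN1 (-1.48, -2.17 and -0.87) and PMT4 (-1.46, -1.48 and -1.38) lowest and KTR2 highest (0.95, 1.18 and 0.96). Without mutant array 1, 5 of them rose. The secretory pathway had 32 falls and 21 rises among 80. SEC53, which supplies mannose for glycosylation (-2.39, -2.46 and -1.94), and SSS1, of the translocation channel (-1.25, -1.61 and -1.09), fell most. USO1, which tethers vesicles to the Golgi, rose (0.85, 1.21 and 1.97). Vacuolar sorting and the proton pump had 23 of each among 66, near the background. VPS21 (1.22, 0.73 and 1.48) and VPS4 (0.97, 0.77 and 1.13) were highest and VMA7 lowest (-0.97, -1.13 and -1.07). Falls in this list numbered 15 without mutant array 1.

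Families near chromosome ends fell in the mutant. Of 9 PAU genes, which encode small mannoproteins, 8 fell and 0 rose, with medians of -1.16, -1.05 and -1.39 on mutant arrays 1, 2 and 3. Of 11 COS genes, which encode membrane proteins of the endosome, 9 fell and 0 rose (medians -0.78, -0.90 and -0.63). In wild type the medians were 0.06, 0.22 and 0.08 and 0.63, 0.31 and 0.65, with 4 PAU rises and 0 falls and 7 COS rises and 2 falls, where 29.7% of all genes rose and 36.3% fell. All 9 PAU genes and 9 of 11 COS genes were called lower in the mutant, where 21.0% of all genes were. PAU3 was at -1.39, -1.28 and -1.58, PAU24 at -1.30, -1.15 and -1.53, COS5 at -1.31, -1.18 and -1.27 and COS6 at -1.08, -1.02 and -0.80. Members of each family are close copies, so their spots could share signal and do not count as separate measurements.

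Other genes at chromosome ends were called about as often as all genes. A count of genes along each chromosome, made after values were seen, placed 64 measured genes among the 5 outermost of an arm, and 46.9% of them fell and 25% rose. Without PAU and COS genes 49 were left, of which 34.7% fell and 32.7% rose, near the shares of all genes. Among genes in places 6 to 10 from an end, without these families, 31.8% fell and 28.4% rose.

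**Figure D4:**
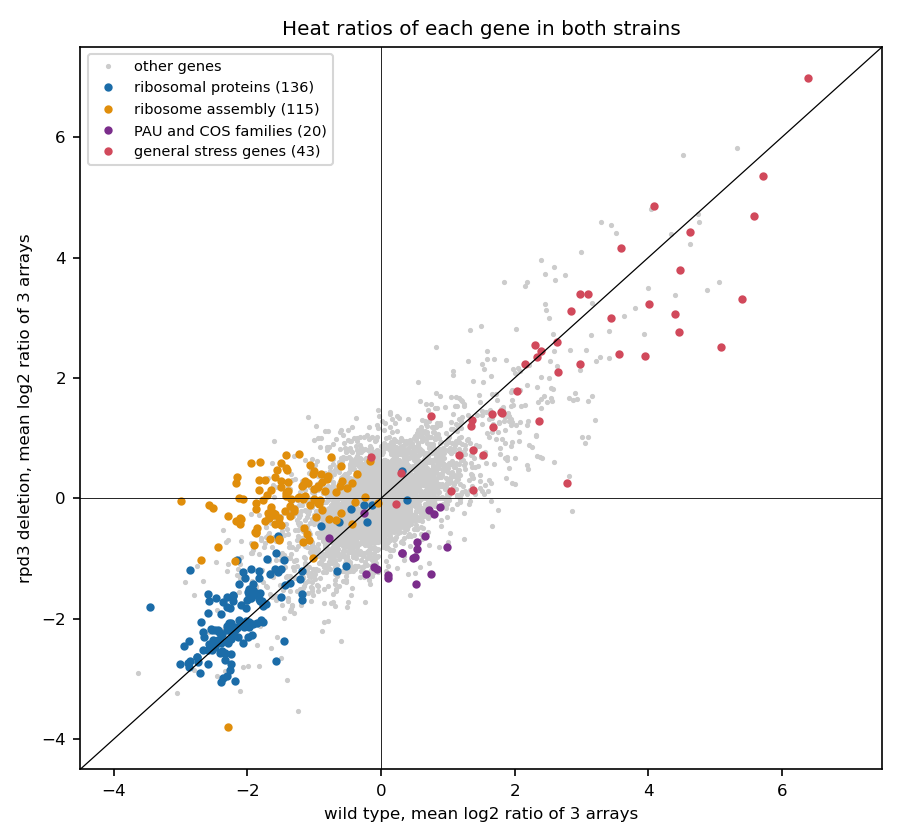
Mean log2 ratio of each gene in the rpd3 deletion (vertical) against wild type (horizontal), each over 3 arrays, with the line of equal ratios and 4 groups coloured. Ribosomal protein genes run along the line. Most general stress genes rise in both strains, with 15 of 43 called lower in the mutant and 2 higher. Ribosome assembly genes lie above the line near 0 on the mutant axis, and most PAU and COS genes lie below it.

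A smaller set of genes changed at least 2-fold in the mutant without a call in the same direction in wild type, and with a called strain difference and arrays that did not overlap. There were 73 such genes, 34 rising and 39 falling. The strains' arrays failed to overlap for 58.4% of all genes, so this criterion alone selects little. The highest were SBA1, an Hsp90 co-chaperone, at 1.49, 0.79 and 2.13 in the mutant and -0.089, -0.59 and 0.53 in wild type, and the metallothionein genes CUP1-1 (1.40, 1.91 and 0.91) and CUP1-2 (1.42, 1.92 and 0.96), which are identical copies. SIC1 followed, with 0.12, -0.33 and 0.12 in wild type. USO1 and PRP3 rose in the mutant and fell in wild type, where they were at -1.38, -1.44 and -0.46 and -0.31, -0.75 and -0.043. QCR6, of respiratory complex III (1.43, 1.25 and 1.30), and SFA1, which breaks down formaldehyde (1.41, 1.15 and 1.40), were at 0.26 ± 0.28 and 0.16 ± 0.26 (SD) in wild type.

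The lowest of these genes were YOX1, a repressor of early cell cycle genes (-1.79, -1.49 and -1.89), ERG28 and TOM5. REX2, an RNA exonuclease (-1.46, -1.15 and -1.87), FLO10, a flocculin (-1.42, -1.15 and -1.70), and HMO1, a DNA-binding protein of ribosomal protein genes (-1.43, -1.24 and -1.42), followed with PAU3 and PAU24. In wild type YOX1 was at -0.24 ± 0.38 and HMO1 at -0.17 ± 0.24 (SD). ERG28 and PAU3 rose in wild type, where they were at 0.56, 0.68 and 0.069 and 0.58, 0.60 and 0.41. Each ratio is taken against unheated cells of the same strain, so levels before and after heating cannot be told apart in a strain difference. SBA1 and REX2 missed the threshold for the difference without mutant array 1 (adjusted p = 0.0522 and 0.0534), wild-type array 1 (0.0641 and 0.0751) or wild-type array 2 (0.0635 and 0.0707).

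Ratios in the mutant also varied with coding length. Among the shortest of 5 bins of genes (78 to 753 bp) 18.3% rose and 48.4% fell, and in the longest (2271 to 14733 bp) 43.1% rose and 20.4% fell. The median went from -0.24, -0.14 and -0.29 on mutant arrays 1, 2 and 3 in the shortest bin to 0.19, 0.041 and 0.30 in the longest. Array 3 had the steepest and array 2 the flattest course. In wild type the same medians were -0.10 and -0.047. The median coding length was 399 bp for histones, 601.5 bp for import and 783 bp for large-subunit ribosomal proteins, against 1338 bp for all genes, 1980 bp for DNA repair and 2588 bp for the nuclear pore. With the length trend removed, 11 mating genes in place of 7 rose, 7 glucan and chitin genes in place of 11 rose, and 7 DNA repair genes in place of 4 fell.

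**Figure D5:**
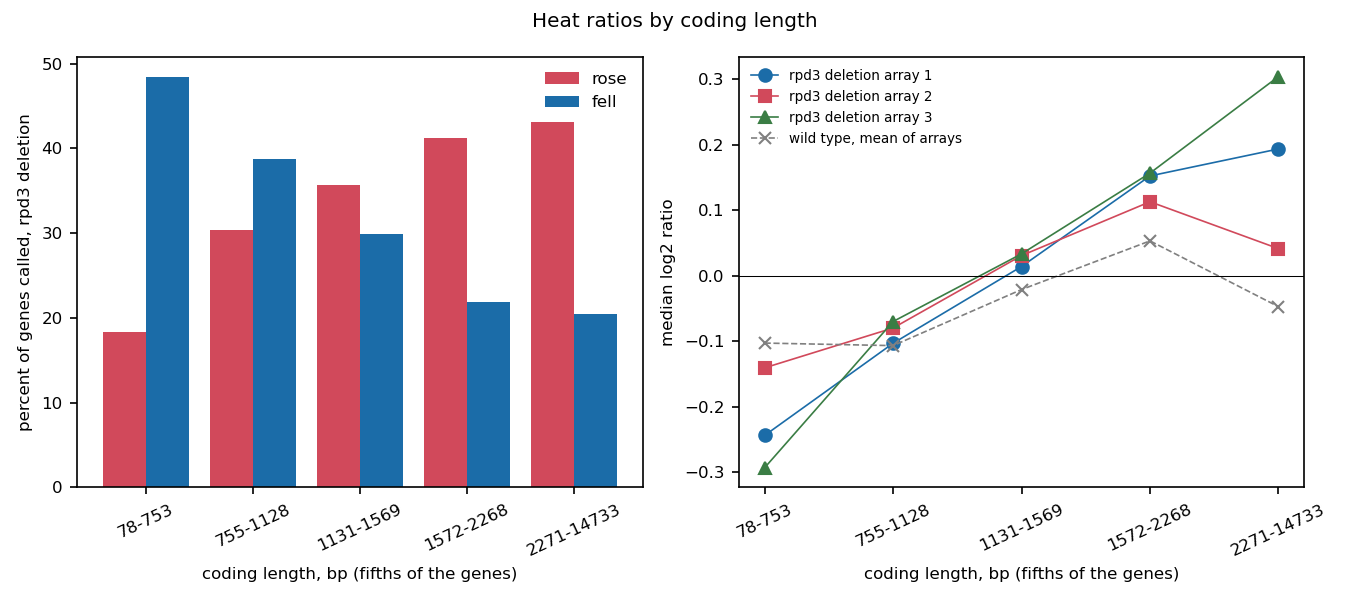
Left, percent of genes that rose or fell in the rpd3 deletion in 5 bins of coding length with nearly equal numbers of genes. Right, median log2 ratio per bin on the 3 mutant arrays and in the mean of wild type: falls outnumber rises among short genes (48.4% against 18.3%) and the reverse holds among the longest (20.4% against 43.1%).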

How the data were processed

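Agilent 2-colour arrays compared heated with control cells of 1 strain. The deposited values are log2 ratios for 45220 spots, made with limma per the submitters' processing notes. The base and sign are inferred from the values. The method of background correction and normalization is one not given in the sources used here. Of the spots, 28532 carried 1 gene symbol in GEO's platform annotation and 16688 none. Here the mean of the 7 spots of a gene (14 for 3 genes) was taken per array, giving 4073 genes, and 125 symbols were updated through the RefSeq R64 gene table. A mean per strain was fitted to all 6 arrays with limma 3.58.1 in R 4.3.3 (4 residual degrees of freedom) and tested against 0 and between strains with Benjamini-Hochberg adjusted p under 0.05. The number of arrays limits the precision. The fit was run on simulated data with 200 changed genes and independent noise, equal in variance between strains. In the real data 65.6% of genes were called, so that run does not measure error rates here. Members and gene lists were chosen with earlier results of these data known, and 3 of 70 lists after values were seen here. Named genes were the 15 highest and lowest called means, up to 3 called genes per list (2 in its majority direction), 9 by SD, 16 by strain difference, and fixed genes. Same-numbered arrays of the strains deviated together in 2 of 3 pairs (r = -0.22, 0.21 and 0.42), which does not settle whether they are paired. Alternatives changed centring, scaling, spot summary, spot filter, length trend, threshold and arrays, or fitted the mutant arrays alone.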

Additional observations from a re-analysis of the deposited data

Results flagged for a closer look

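The heat ratio differed between strains by a test of the difference itself (limma, Benjamini-Hochberg adjusted) in 1012 genes that were higher and 854 that were lower in the rpd3 deletion. Among genes that changed at least 2-fold in the mutant without the same call in wild type, the 8 with the highest mutant ratios had mutant minus wild-type differences of 1.52 (SBA1), 1.30 (CUP1-2), 1.28 (CUP1-1), 1.40 (SIC1), 2.44 (USO1), 1.71 (PRP3), 1.07 (QCR6) and 1.16 (SFA1). For the 8 with the lowest mutant ratios the differences were -1.48 (YOX1), -2.05 (ERG28), -1.16 (TOM5), -1.05 (REX2), -1.25 (FLO10), -1.95 (PAU3), -1.19 (HMO1) and -1.43 (PAU24). Genes with lower mutant ratios can differ more between strains. These genes were selected partly on this difference, so its values describe them and are no separate support. With 3 arrays in a strain, single arrays were not tested as outliers.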

How the results depend on the processing

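Under a test against changes of up to 1.2-fold 770 genes rose and 815 fell. Against wild type, the counts with deleted-gene centring were 1564 higher and 398 lower. Leaving out 1 array at a time gave 995 to 1333 rises, 995 to 1290 falls, 643 to 1202 genes higher and 450 to 1016 lower. The lowest pair, 643 and 450, came without mutant array 1, and 480 and 507 genes were lower without wild-type arrays 1 and 2. The cause was not tested. Of the 6 arrays, 3 correlated best with their own number. These correlations cannot settle whether the replicate numbers pair the arrays, since deviations of 3 arrays from their mean constrain each other. With the replicate block 1439 genes rose and 1366 fell. With the mutant arrays fitted alone 1166 rose and 1136 fell. CCT8, HHT2, MF(ALPHA)2, RRP5, SIN3 and UME6 were then not called (adjusted p from 0.0516 to 0.0764). In that fit falls went from 14 to 9 in small-subunit assembly and 13 to 6 in actin genes, and rises from 16 to 9 in polarised growth. Among lists whose mutant arrays lay on 1 side of 0, medians changed sign for thiamine (0.036 centred on the deleted genes, 0.062 without the length trend), the deleted genes (0.0011 centred on themselves), mitochondrial ribosomal proteins (0.022) and alpha-cell genes (0.089) without the length trend, and cell wall integrity signalling (-0.031 without mutant array 3, within -0.031 to 0.27 over single arrays left out). MF(ALPHA)2 went to 0.18 without the length trend and UME6 to 0.039 with the median of spots. Of the 19 lists whose median changed sign in any setting, the other 14 had reported medians of at most 0.141 in size, both assembly lists among them (-0.059 to 0.087 for the small and -0.25 to 0.055 for the large subunit). With arrays centred on the deleted genes, falls went from 15 to 9 in nuclear pore, 13 to 7 in actin, 11 to 5 in cohesin and 6 to 3 in endoplasmic reticulum folding genes. Of 4016 values of named genes under alternatives, 3947 kept direction and call, 59 lost and 8 gained a call, and 2 changed sign. The filter on spot spread tested fewer genes. Scaling used the median absolute value of each array, since the planned limma function gave no values on log ratios. Promoter motifs were not run, as no promoter sequence was used here. No dye swap separates dye from heat.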
